A study of Sus scrofa with 15 samples.

Results

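Interleukin-10 (IL10), the TGF-beta ligands and the SMAD proteins were measured in kidney RNA from 15 female Yorkshire pigs, 20 weeks old by the methods of the study, with 1 Agilent single-colour porcine array per pig. The members were every probe whose RefSeq accession maps to a pig gene symbol among IL10, TGFB1, TGFB2, TGFB3, TGFBI, SMAD2, SMAD3, SMAD4 and SMAD7. Probes were found for 7 of these 9 genes. They were 16 of the 43603 probes of the array, and TGFB2 and TGFBI were not analysed here. All pigs had a left nephrectomy before the experiment, so the tissue was a single remaining right kidney. All of them then had 90 minutes of warm ischemia of that kidney, and tissue was taken 72 hours later. The 5 control pigs had no preconditioning. The 5 rIPCe pigs had remote ischemic preconditioning, cycles of clamping and release of the right external iliac artery, immediately before the renal ischemia. The 5 rIPCl pigs had the same preconditioning 24 hours before it. No pig without renal ischemia was included, and each comparison is therefore between kidneys that had been ischemic.

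IL-10 is a cytokine that dampens macrophage and T cell responses. It binds a receptor made of IL10RA and IL10RB, which acts through JAK1, TYK2 and STAT3. The TGF-beta ligands are secreted in a latent form. Once released, they bind the receptors TGFBR2 and TGFBR1, which phosphorylate SMAD2 and SMAD3. These join SMAD4 and enter the nucleus, and SMAD7, whose gene they induce, inhibits the same receptors. In the kidney, TGF-beta1 is best known for driving matrix deposition, and IL-10 for limiting inflammation after injury.

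The scanner output holds no probe sequences. The study also designed RT-PCR primers for IL-10 and TGF-beta1, and these are shown because they are the only designed sequences at hand for the 2 transcripts that the results turn on. Each primer has 20 bases, written 5′ to 3′, and no letter is marked.

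IL-10 forward: ctggaagacgtaatgccgaa
IL-10 reverse: gctcttgttttcacagggca
TGF-beta1 forward: tccacggagaagaactgctg
TGF-beta1 reverse: ccacgtagtacacgatgggc

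The primer list gives the same TGF-beta1 letters for alpha 2 macroglobulin, in both directions. Only the arrays were analysed here. Values below are log2 of the scanner's processed signal after quantile normalization. A level of 1 probe cannot be compared with that of another. A difference is called where limma, fitted to all probes, gives a Benjamini-Hochberg adjusted p under 0.05, and the criteria of the methods (a fold change of at least 2 with an unadjusted p under 0.05) are counted beside it.

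Between 62.2% and 69.5% of spots were well above background on the control arrays, 67.4% to 73.9% on the rIPCe arrays and 71.8% to 74.2% on the rIPCl arrays. The kidney marker lists had signal in every group: all 5 measured proximal tubule genes and all 4 distal nephron genes were well above background on all arrays. The arrays lay on 4 slides. Control arrays 1 to 4 were together on slide 1, and rIPCl arrays 2 to 5 on slide 4. Mixed groups were present on slide 2 (control array 5 and the first 3 rIPCe arrays) and slide 3 (the remaining 2 rIPCe arrays and rIPCl array 1). Group and slide therefore largely coincide, and values within slides are given beside the main ones. With slide as a fixed block, rIPCe versus control uses slide 2 alone and rIPCl versus rIPCe slide 3 alone. In such a fit rIPCl versus control rests on control array 5 and rIPCl array 1, linked through the rIPCe arrays of these slides.

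In rIPCl versus control, 2 of the 16 member probes were called, both higher, against 6.27% of all probes in either direction and 2.69% higher. These were the brighter IL10 probe and the dimmer TGFB1 probe. An unadjusted p under 0.05 was found for 7 of the 16, against 26.8% of all probes, and these 7 were both IL10 probes, both TGFB1 probes and, lower in rIPCl, 3 of the 5 SMAD4 probes. Both IL10 probes, and no other member, passed the criteria of the methods, which 5.83% of all probes passed in either direction and 3.67% by being higher. The median log2 difference over the 16 probes was -0.01, and over all probes -0.03. The 16 probes belong to 7 genes and are not independent of each other: 5 are of SMAD4. With each gene taken by its brightest probe, 1 of the 7 was called in rIPCl versus control, against 9.50% of all 3020 genes. An unadjusted p under 0.05 was found for 3 of the 7, against 35.1%, and 1 passed the criteria, against 9.70%. In rIPCe versus control, 0 of the 16 were called by limma, with 1 at an unadjusted p under 0.05, against 0.00229% and 14.1% of all probes. In rIPCe versus control 0 passed the criteria, which 2.18% of all probes did. In rIPCl versus rIPCe, 0 were called by limma and 2 had an unadjusted p under 0.05, against 0% and 3.85% of all probes. The methods' t-test called 0 member probes in rIPCl versus control after adjustment. Any 2 of the 3 comparisons share the 5 arrays of 1 group. The calls over all probes moved with the settings: with slide as a random block 0 probes were called in rIPCl versus control by limma, with 1832 past the criteria of the methods. Without 1 array the calls over all probes ran from 49 (without rIPCl array 5) to 4913 (without rIPCl array 1). The share of all adjusted calls that were higher, 42.9%, was 27.8% with each array's 75th percentile subtracted and 8.12% without normalization between arrays. For the calls by the criteria of the methods it was 63.0%, 42.5% and 24.9%.

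**Figure D1:**
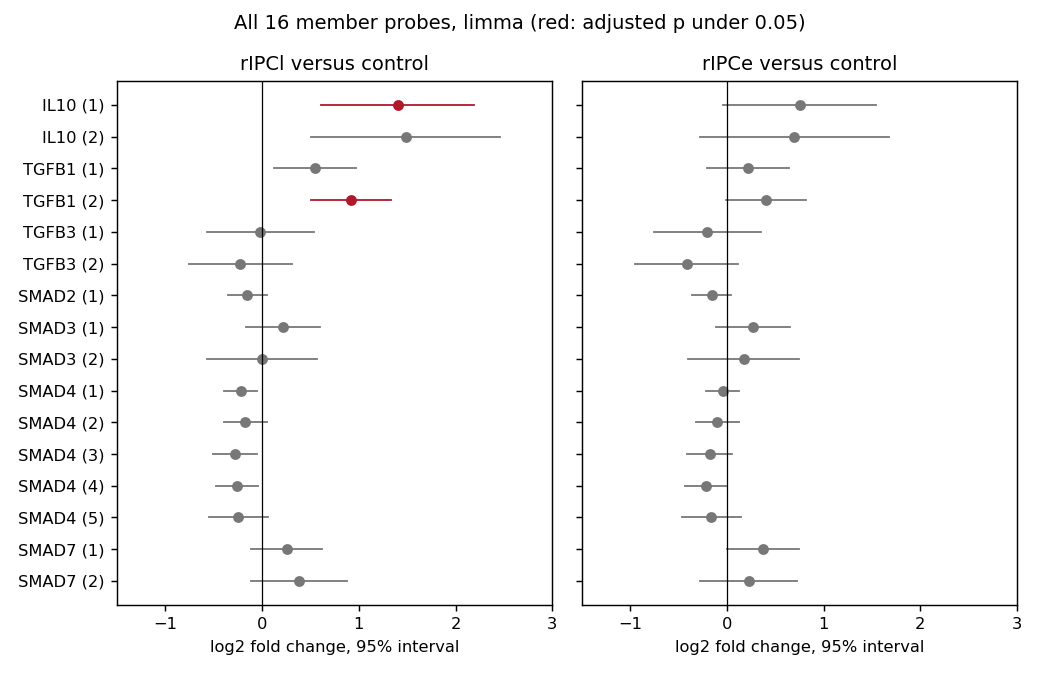
Log2 fold change with its 95% limma interval for each of the 16 member probes, numbered by falling signal within a gene, for rIPCl versus control (left) and rIPCe versus control (right). Red marks an adjusted p under 0.05, which 2 probes had in rIPCl and 0 in rIPCe.

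IL10 was higher in rIPCl than in control. On the brighter probe (A_72_P185331) the log2 signal was 7.61, 6.02, 6.24, 6.72 and 5.52 on control arrays 1 to 5. It was 6.90, 7.43, 7.62, 7.20 and 6.73 on the rIPCe arrays. It was 6.85, 7.95, 8.58, 7.83 and 7.92 on the rIPCl arrays. Control array 1 was the highest of its group and lay above rIPCl array 1, so the groups overlapped, and the other 4 rIPCl arrays were above every control array. The means were 6.42 ± 0.79 (SD, n = 5) in control, 7.18 ± 0.37 in rIPCe and 7.83 ± 0.62 in rIPCl. rIPCl exceeded control by 1.40 (SE 0.37, 95% interval 0.61 to 2.19), which is 2.64-fold, with an adjusted p of 0.0421 in limma and a two-sided exact permutation p of 0.0159, where 0.00794 is the smallest that 5 against 5 arrays can give. rIPCe exceeded control by 0.75 (95% interval -0.04 to 1.54, adjusted p = 0.376 in limma). rIPCl exceeded rIPCe by 0.65 (95% interval -0.14 to 1.44, adjusted p = 0.979 in limma). The order of the means was thus control, rIPCe, rIPCl, and neither pair of neighbours differed beyond its spread.

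The dimmer IL10 probe (A_72_P440601) was near the limit of detection. It was well above background on 1 of 5 control arrays, 4 of 5 rIPCe arrays and 5 of 5 rIPCl arrays. Its log2 signal was 5.59, 3.96, 3.75, 4.00 and 2.28 on the control arrays, 4.01, 5.00, 4.88, 5.10 and 4.07 on the rIPCe arrays, and 5.62, 5.17, 5.83, 5.28 and 5.08 on the rIPCl arrays. Control array 1 was again the highest of its group. The 5 rIPCl arrays were above the other 4 control arrays. The difference between rIPCl and control was 1.48 (SE 0.45, 2.79-fold), with an adjusted p of 0.0624 in limma and an exact permutation p of 0.0317. Without control array 1 it was 1.90, with an adjusted p of 0.0136 in limma. It was 3.38 with slide as a fixed block (adjusted p = 0.168 in limma). That fit rests on rIPCl array 1 and control array 5, which at 2.28 was the lowest of the 15 arrays on this probe. The 2 probes followed each other over the 15 arrays (Pearson r = 0.859, a description over arrays that share groups and slides).

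The call of IL10 was lost in 9 of the 15 runs with 1 array left out. The adjustment is over all probes, and calls over all probes ran from 49 to 4913 in these runs. Its adjusted p in limma was 0.0991 without control array 2, 0.0848 without control array 3, 0.0668 without control array 4 and 0.0525 without control array 5. It was 0.0757, 0.0990, 0.0863 and 0.0843 without rIPCl array 2, 3, 4 or 5, and 0.0524 without rIPCe array 4. The difference itself stayed between 1.18 and 1.70 with 1 array left out. With normexp correction of the median signal it was 0.86 (adjusted p = 0.0373 in limma), and 0.34 on the dimmer probe (adjusted p = 0.0801). With slide as a fixed block it was 1.68 (adjusted p = 0.40 in limma), and with slide as a random block 1.44 (adjusted p = 0.241 in limma). Within slide 2, the 3 rIPCe arrays were 1.79 above the single control array, which was the lowest of its group. Within slide 3, the single rIPCl array was 0.11 below the mean of the 2 rIPCe arrays.

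TGFB1, the main TGF-beta ligand of adult tissue, was also higher in rIPCl than in control, on 1 of its 2 probes by the adjusted test. On the dimmer probe (A_72_P442849), which was well above background on all 15 arrays, the log2 signal was 8.58, 7.57, 7.60, 7.89 and 8.08 on the control arrays. It was 8.15, 8.51, 8.46, 8.42 and 8.20 on the rIPCe arrays and 8.78, 8.47, 9.28, 8.93 and 8.84 on the rIPCl arrays. Control array 1 lay above rIPCl array 2 and no other rIPCl array. The means were 7.95 ± 0.41, 8.35 ± 0.16 and 8.86 ± 0.29 (SD, n = 5 each) in control, rIPCe and rIPCl. rIPCl exceeded control by 0.92 (SE 0.19, 95% interval 0.51 to 1.33, 1.89-fold), with an adjusted p of 0.0249 in limma and an exact permutation p of 0.0159. This fold is under the minimum of 2 in the criteria of the methods. The difference between rIPCe and control was 0.40 (95% interval -0.007 to 0.815, adjusted p = 0.362 in limma). Between rIPCl and rIPCe it was 0.51 (95% interval 0.10 to 0.92, adjusted p = 0.979 in limma). The unadjusted p of the latter was 0.0183 in limma, and its exact permutation p was 0.0159.

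On the brighter TGFB1 probe (A_72_P035706) the log2 signal was 10.19, 9.85, 9.51, 9.97 and 9.77 on the control arrays, 9.80, 10.47, 10.09, 10.00 and 10.04 on the rIPCe arrays, and 10.33, 9.85, 11.01, 10.30 and 10.55 on the rIPCl arrays. Here rIPCl array 2 lay within the control range and the other 4 rIPCl arrays above it. The difference between rIPCl and control was 0.55 (SE 0.20, 95% interval 0.13 to 0.97, 1.46-fold), with an adjusted p of 0.0982 in limma. The 2 probes gave the same direction with different sizes, and they followed each other over the 15 arrays (Pearson r = 0.860, a description). The adjusted p of the dimmer probe was 0.0656 without control array 2, 0.0574 without control array 3, and 0.0615, 0.0624 and 0.0566 without rIPCl array 3, 4 or 5. With slide as a fixed block the difference of the dimmer probe was 0.77 (adjusted p = 0.613 in limma), and with slide as a random block 0.89 (adjusted p = 0.227 in limma). Within slide 2 rIPCe was 0.30 above control on this probe, and within slide 3 rIPCl was 0.47 above rIPCe.

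**Figure D2:**
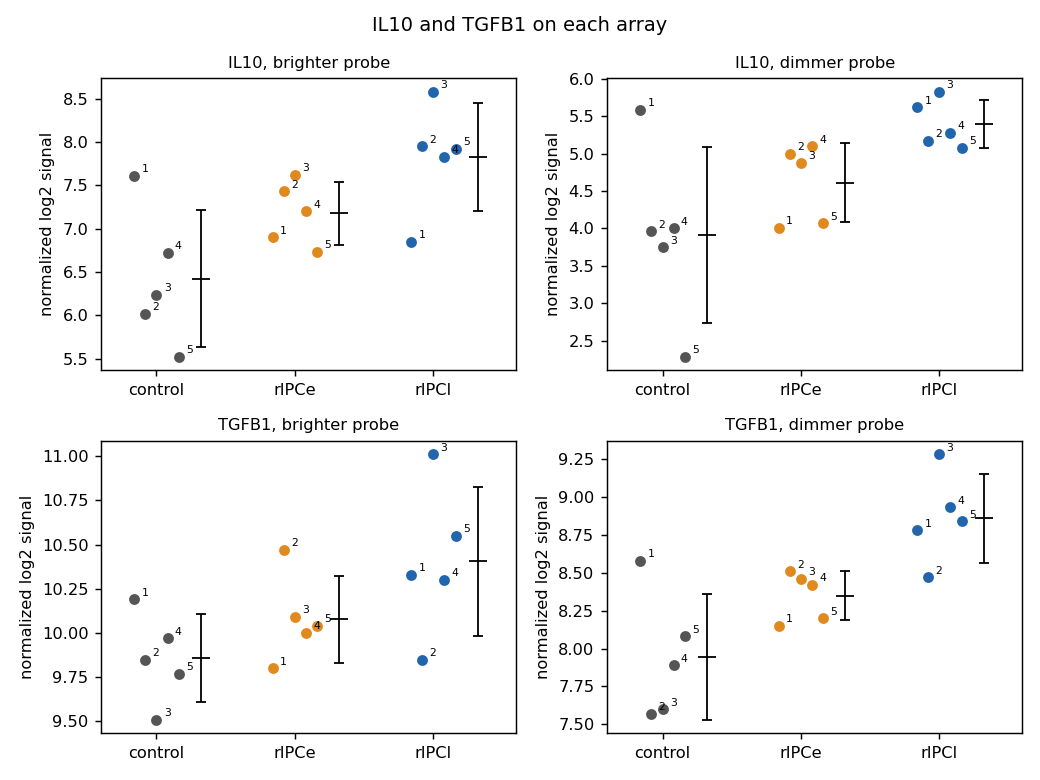
Normalized log2 signal of both IL10 probes and both TGFB1 probes on each of the 15 arrays. Points are arrays labelled by replicate number, bars are the group mean ± SD (n = 5), and the axes differ between panels. Control array 1 is the highest control array in all 4 panels.

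TGFB3, another ligand of the same receptors, did not pass the test in any comparison. Its brighter probe gave 8.98, 9.08, 9.28, 9.63 and 9.74 on the control arrays, 8.79, 9.20, 9.28, 9.02 and 9.42 on the rIPCe arrays, and 9.59, 8.25, 9.42, 9.67 and 9.67 on the rIPCl arrays. The groups overlapped, and rIPCl array 2 was the lowest of all 15 arrays. The difference between rIPCl and control was -0.02 (95% interval -0.57 to 0.53, adjusted p = 0.975 in limma) and was 0.25 without rIPCl array 2. The dimmer TGFB3 probe gave -0.22 in rIPCl and -0.41 in rIPCe (adjusted p = 0.590 and 0.462 in limma).

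SMAD2 and SMAD3 carry the signal of the activated receptors. SMAD2 had 1 probe, with 7.93, 8.15, 7.86, 8.05 and 7.85 on the control arrays, 7.78, 7.90, 7.71, 7.91 and 7.76 on the rIPCe arrays, and 8.01, 7.85, 7.76, 7.80 and 7.66 on the rIPCl arrays. The difference from control was -0.15 in both rIPCl and rIPCe (95% interval -0.36 to 0.05 in rIPCl, adjusted p = 0.310 and 0.470 in limma), and the groups overlapped. The brighter SMAD3 probe gave 10.59, 10.85, 11.11, 10.89 and 10.30 on the control arrays, 11.42, 11.33, 10.97, 10.78 and 10.59 on the rIPCe arrays, and 11.03, 10.82, 10.87, 11.09 and 10.99 on the rIPCl arrays. All 5 rIPCl arrays lay within the control range. The difference was 0.22 in rIPCl (95% interval -0.16 to 0.59, adjusted p = 0.455) and 0.27 in rIPCe (adjusted p = 0.502), both in limma. Within slide 2, rIPCe was 0.94 above the single control array, which was the lowest of its group. With slide as a fixed block, a fit that rests on this array, the difference between rIPCl and control was 1.29 (adjusted p = 0.102 in limma). The dimmer SMAD3 probe gave 0.00 in rIPCl and 0.17 in rIPCe, and 1.80 in rIPCl with slide as a fixed block.

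SMAD4, the partner that SMAD2 and SMAD3 share, had 5 probes and was below control on each of them in rIPCl, by 0.17 to 0.28, without passing the adjusted test. The brightest probe (A_72_P146796) gave 11.91, 12.00, 12.10, 12.05 and 11.94 on the control arrays, 11.96, 12.05, 11.91, 11.96 and 11.91 on the rIPCe arrays, and 11.88, 11.67, 11.72, 11.87 and 11.75 on the rIPCl arrays. All 5 rIPCl arrays lay below all 10 others. This was the 1 member probe of 16 whose rIPCl and control arrays did not overlap, against 9.48% of all probes in either direction and 6.76% lower. It was also the 1 of 16 between rIPCl and rIPCe, against 0.713% in either direction and 0.335% lower. None of the 16 was without overlap between rIPCe and control, against 3.3% of all probes. The difference between rIPCl and control was -0.22 (SE 0.08, 95% interval -0.39 to -0.05), with an adjusted p of 0.0984 in limma and an exact permutation p of 0.00794, the smallest possible. Between rIPCl and rIPCe it was -0.18 (adjusted p = 0.979 in limma), and between rIPCe and control -0.04 (adjusted p = 0.850 in limma).

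The other 4 SMAD4 probes differed by -0.17, -0.28, -0.26 and -0.24 between rIPCl and control, with adjusted p of 0.119 to 0.310 in limma. In rIPCe the same 4 differed by -0.10 to -0.21 from control, against -0.04 on the brightest probe. Their correlation with the brightest probe over the 15 arrays ranged from 0.457 to 0.785, as a description. With slide as a fixed block the 5 probes gave -0.02, -0.03, 0.11, 0.17 and -0.08 in rIPCl versus control. The direction of 2 of them turned, in a fit that rests on control array 5 and rIPCl array 1. Within slide 3, the single rIPCl array was 0.05 below the mean of the 2 rIPCe arrays on the brightest probe.

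**Figure D3:**
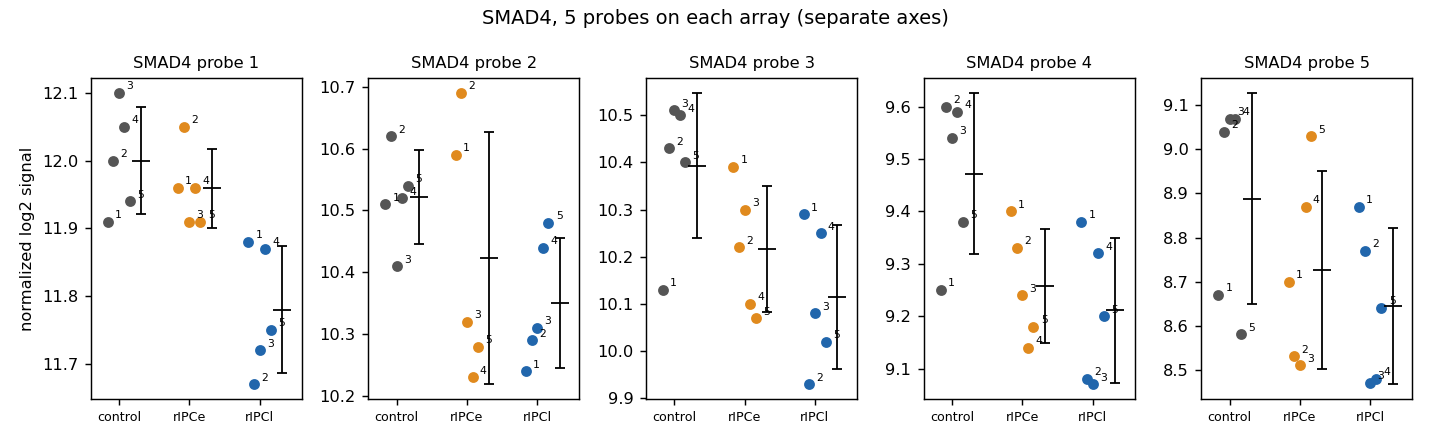
Normalized log2 signal of the 5 SMAD4 probes on each array, in order of falling mean signal. Points are arrays labelled by replicate number and bars are the group mean ± SD (n = 5). On probe 1 all 5 rIPCl arrays lie below the other 10; on probes 2 to 5 the groups overlap.

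SMAD7, the inhibitor of the receptors, had a bright probe with 11.13, 10.71, 10.99, 10.72 and 11.15 on the control arrays, 10.65, 11.40, 11.39, 11.66 and 11.48 on the rIPCe arrays, and 11.40, 11.10, 11.32, 11.02 and 11.14 on the rIPCl arrays. rIPCe array 1 was the lowest of the 15, and the other 4 rIPCe arrays were above every control array. The difference from control was 0.37 in rIPCe (95% interval 0.01 to 0.74, adjusted p = 0.347 in limma) and 0.26 in rIPCl (95% interval -0.11 to 0.62, adjusted p = 0.359 in limma). These became -0.01 and -0.18 with slide as a fixed block. The dimmer SMAD7 probe, well above background on 4 of 5 control arrays and on all others, gave 0.23 in rIPCe and 0.38 in rIPCl (adjusted p = 0.685 and 0.308 in limma).

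Across the 15 arrays the brighter probes of IL10 and TGFB1 had a Pearson correlation of 0.730, and of 0.529 after each group's mean was removed. For IL10 and SMAD4 these were -0.677 and -0.340. Arrays share groups and slides, and the values are descriptions. Among 2575 genes well above background on all arrays of at least 1 group, those most like IL10 were PSME1, a proteasome activator subunit (r = 0.938), ITGAL, the leukocyte integrin alpha L chain (0.936), STAT5A, a cytokine-activated transcription factor (0.918), ICAM3, a leukocyte adhesion molecule (0.917), and STX11 (0.915). Those most like TGFB1 were TLR10, a Toll-like receptor (0.908), TNFSF13B, the B cell survival factor BAFF (0.900), FGL2 (0.893), ALOX5AP, which activates 5-lipoxygenase (0.888), and DOK1, an adaptor protein (0.881). TGFB1 ranked 186 in likeness to IL10, and IL10 ranked 96 in likeness to TGFB1.

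The other genes of both pathways are counted from lists. Over all 3020 genes with a symbol, 9.50% were called in rIPCl versus control, with a median log2 difference of -0.02, and 0% were called in rIPCe versus control, with a median of -0.03. The criteria of the methods were passed by 9.70% of these genes in rIPCl (6.89% by being higher) and by 2.68% in rIPCe (1.56% higher), and an unadjusted p under 0.05 was found for 35.1% and 16.1%. In rIPCe versus control 0 genes were called by limma in each of the 7 lists.

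Of the IL-10 receptor and signalling genes, 6 were measured and 0 were called in rIPCl, with 2 at an unadjusted p under 0.05 and a median of 0.26. IL10RB, the shared receptor chain, differed by -0.27 in rIPCl and -0.36 in rIPCe (adjusted p = 0.526 and 0.551 in limma), and no probe was assigned to IL10RA through RefSeq, so it was not analysed here. Of the genes that respond to IL-10 or mark alternatively activated macrophages, 9 are counted here. In rIPCl 1 of them rose and 0 fell by the adjusted test, and the median was 0.52. The criteria of the methods were passed by 3, all higher, against 6.89% of all genes that passed by being higher. The gene that rose was MRC1, the macrophage mannose receptor, which gave 8.84, 8.91, 8.50, 8.76 and 8.30 on the control arrays and 9.10, 9.49, 9.94, 9.93 and 9.90 on the rIPCl arrays. It was 2.01-fold higher in rIPCl, with no overlap (adjusted p = 0.0244 in limma). By direction alone, 7 of the 9 were higher and 2 lower. IL4R differed by -0.60 with no overlap, against 9.48% of all probes (adjusted p = 0.113 in limma). HMOX1 differed by -0.40 (adjusted p = 0.112 in limma), and ARG1 by 0.43 (adjusted p = 0.83 in limma). The rest of the list was higher. FCGR1A differed by 1.68 (3.20-fold, adjusted p = 0.130 in limma) and TNFAIP3 by 1.09 (2.13-fold, 0.123). These passed the criteria of the methods beside MRC1. CD163 differed by 0.90, FCGR2B by 0.52 and TNFRSF1B by 0.11 (adjusted p = 0.210, 0.268 and 0.838 in limma).

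Of the TGF-beta family receptors, 9 were measured and 1 rose in rIPCl, with a median of 0.04. This was ENG, or endoglin, a co-receptor of endothelial cells, at 11.96, 11.25, 11.31, 11.58 and 11.37 on the control arrays and 12.57, 11.70, 12.03, 12.35 and 12.69 on the rIPCl arrays. The difference was 0.77 (1.71-fold, adjusted p = 0.0433 in limma). TGFBR1, the kinase that phosphorylates SMAD2 and SMAD3, differed by 0.40 (adjusted p = 0.116 in limma), and TGFBR3, a co-receptor that presents the ligands, by -0.25 (adjusted p = 0.603 in limma). No probe was assigned to TGFBR2, which was not analysed here.

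Of the genes of latency and activation, 13 were measured and 1 was called in rIPCl, with a median of 0.17. MMP14, a membrane-bound protease, was 1.53-fold higher (adjusted p = 0.0387 in limma). The latent TGF-beta binding proteins were not assigned a probe and were not analysed here. Of the other SMADs and regulators, 3 were measured and 0 were called by limma, with 0 at an unadjusted p under 0.05 and a median of 0.11. Of the other ligands and antagonists of the superfamily, 14 were measured and 1 was called. This was FST, or follistatin, which binds activins, 1.35-fold higher in rIPCl (adjusted p = 0.0440 in limma), and the median was 0.27.

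Of the known TGF-beta target genes, 17 were measured and 0 were called by limma in rIPCl versus control, with 6 at an unadjusted p under 0.05, against 35.1% of all genes, and a median of 0.56. The criteria of the methods were passed by 4 of the 17, against 6.89% of all genes that passed by being higher, and all 4 were higher: the matrix protein gene POSTN (2.24-fold, adjusted p = 0.126 in limma), the collagen crosslinking enzyme LOX (2.18-fold, 0.0688), the protease inhibitor TIMP1 (2.15-fold, 0.0513) and the collagen chain COL5A1 (2.03-fold, 0.106). In rIPCe versus control POSTN alone of the 17 passed them, at 2.01-fold (adjusted p = 0.345 in limma), against 2.68% of all genes.

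The calls of MRC1, ENG, MMP14 and FST in rIPCl changed with the settings and with the arrays left out. Over 26 other settings, MRC1 was called in 18, ENG in 10, MMP14 in 13 and FST in 7, with the direction kept in all. The log2 differences with slide as a fixed block were 1.20 for MRC1, 1.52 for ENG, 0.10 for MMP14 and 0.18 for FST, with adjusted p of 0.256 to 0.960 in limma. Without control array 2, control array 3, rIPCl array 3, rIPCl array 4 or rIPCl array 5, each of the 4 lost its call, with adjusted p of 0.0539 to 0.102 in limma. ENG, FST and MMP14 also did without control array 4 (0.0716 to 0.0805), and FST and MMP14 without rIPCl array 2 (0.0843 and 0.0565). ENG and FST were lost in addition without rIPCe array 4 or 5 or rIPCl array 1 (0.0513 to 0.0554), ENG without control array 5 (0.0509), and FST without control array 1 (0.0633) or rIPCe array 2 or 3 (0.0513 and 0.0504).

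**Figure D4:**
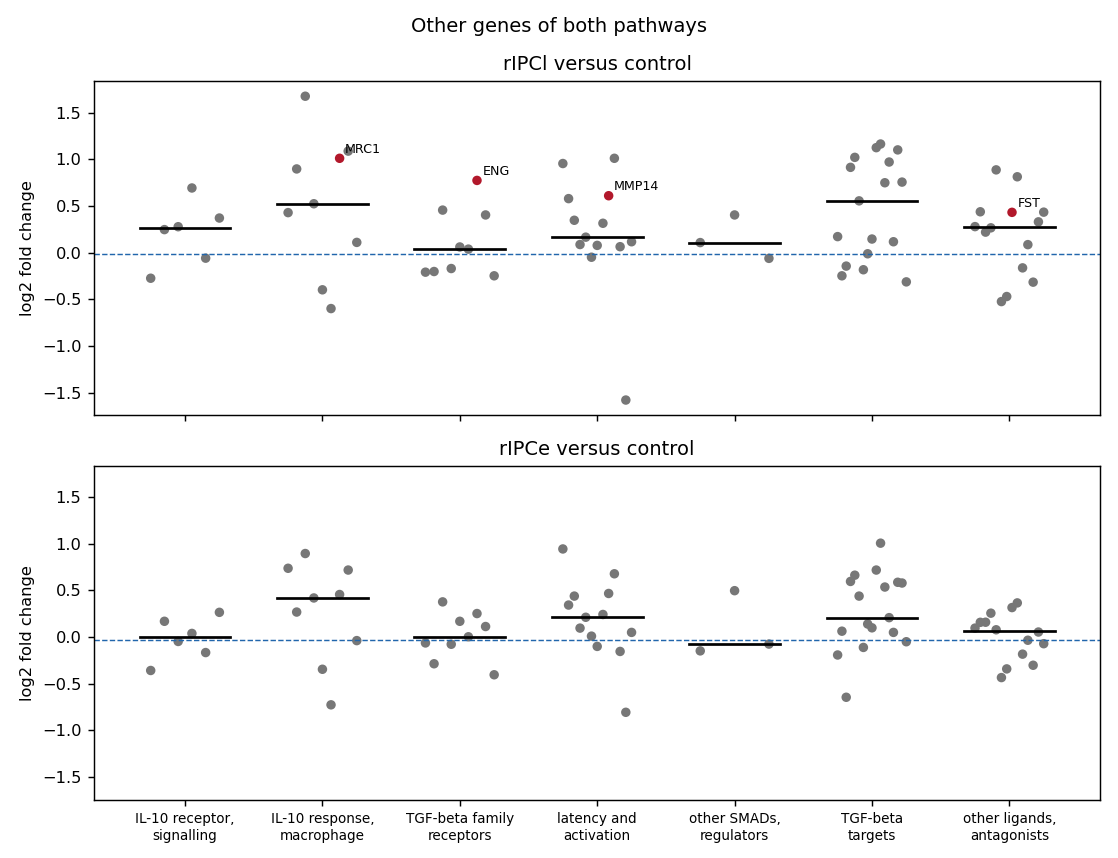
Log2 fold change of the genes counted in 7 pathway lists in rIPCl versus control (top) and rIPCe versus control (bottom). Points are genes, red where the adjusted p was under 0.05, black lines are list medians and the dashed line is the median of all 3020 genes. The 4 red genes are named, all in rIPCl; the lowest point is PLG in rIPCl at -1.58 (adjusted p = 0.202).

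Markers of the other cell types that whole kidney tissue holds are given beside these results. For these and the tubule markers below, the shares over all 3020 genes in rIPCl versus control serve as reference. They were 48.5% higher, 9.50% called and 35.1% at an unadjusted p under 0.05. Arrays of the 2 groups did not overlap for 9.48% of all probes. In rIPCl versus control 7 of the 8 measured macrophage markers were higher and 4 of the 8 were called (C1QA, C1QB, C1QC and MRC1). MRC1 and CD163, which was not called, are also counted among the IL-10 genes above. The summed signal of the 8 macrophage markers was 11300 to 29500 in control, 15700 to 27300 in rIPCe and 18700 to 49800 in rIPCl. All 10 measured T and NK cell markers were higher in rIPCl and 0 were called by limma, with 7 at an unadjusted p under 0.05; their summed signal was 2840 to 4880, 2140 to 4620 and 3670 to 11400. Of 6 measured fibroblast markers 6 were higher and 1 was called, with sums of 39200 to 57000, 45700 to 99600 and 42200 to 93900. Of these 6, ACTA2, COL1A2 and POSTN are also counted among the TGF-beta targets above, and DCN among the genes of latency and activation. The 3 measured endothelial markers had sums of 12100 to 18200, 11200 to 15900 and 11100 to 16900, with 0 called by limma. The listed markers common to all leukocytes were not assigned a probe and were not analysed here. Of 3 measured B and plasma cell markers 3 were higher and 1 was called, CD79A, a chain of the B cell receptor complex, at 2.35-fold with no overlap (adjusted p = 0.0407 in limma). Their sums were 42.2 to 76.6, 55.7 to 98.7 and 67.1 to 250.

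Markers of tubular injury and of the tubule are given in the same way. Of 3 measured tubular injury markers 3 were higher in rIPCl and 1 was called, CLU, or clusterin, at 4.04-fold with no overlap (adjusted p = 0.0277 in limma). The sums were 53200 to 255000 in control, 96600 to 364000 in rIPCe and 197000 to 271000 in rIPCl. Of 5 measured proximal tubule markers 4 were lower and 0 were called by limma, with 3 at an unadjusted p under 0.05. The anion transporter SLC22A8 was 2.86-fold lower and the creatine synthesis enzyme GATM 2.07-fold higher, each with no overlap (adjusted p = 0.0587 and 0.104 in limma). The sums were 32300 to 68700, 30600 to 75700 and 44300 to 73900. The 4 distal nephron markers, 2 mesangial markers and 1 podocyte marker gave 0 calls in limma, and none of the 7 reached an unadjusted p under 0.05.

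The part of these cell types, and of tubular injury, in the differences of IL10 and TGFB1 was not tested. In whole kidney RNA, a change in the number of cells of a type and a change in RNA per cell cannot be told apart.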

How the data were processed

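Kidney RNA of 15 pigs was hybridised to single-colour arrays, 1 array per pig, and grouped by the sample labels. The authors deposited the intensity of every spot, made with Agilent Feature Extraction 11.0.1.1 per the submitters' processing notes and corrected for background within each array, and a table of the same intensities per probe, which agreed within 0.1% for all 43603 probes. Neither was normalized between arrays. From the deposited intensities, log2 values were computed here and quantile normalized, as in the methods of the study. Of 45220 spots per array, 1417 control spots were left out, as were 1 to 70 outlier spots; 0 were saturated. Spots of a probe were averaged, and a gene with several probes was represented by the brightest. RefSeq accessions gave symbols to 6686 probes (3020 genes); the probes of a member were taken by that accession, and TGFB2 and TGFBI matched none. The genome build was not given in the sources used here.

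Groups were compared with limma 3.58.1 in R 4.3.3, with a mean per group over 15 arrays and Benjamini-Hochberg adjustment over all probes. Exact permutation tests were two-sided over 252 assignments. The number of arrays limits the precision. The members and lists were chosen with earlier results of these data known. Named were all members, the receptors, endoglin and latent TGF-beta binding proteins, and in each list and comparison up to 5 called genes of largest change, or those past the criteria of the methods where none was called, and the 5 genes most like IL10 and TGFB1. Counts cover all measured genes of a list, except that 1 gene is not reported here and was left out of its list. PLG, IL4R, HMOX1, ARG1, FCGR1A, TNFAIP3, CD163, FCGR2B, TNFRSF1B and the named marker genes were chosen after their values were seen. The script was tested on simulated data. Alternatives changed the normalization, background correction, input table, filter, outliers, arrays, test and blocks, and left out each array.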

Additional observations from a re-analysis of the deposited data

Results flagged for a closer look

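Among the 48 sets of 5 arrays (16 probes in 3 groups), 3 held an array whose gap to its nearest neighbour, as a share of the whole range of the group, exceeded Dixon's critical value of 0.71. Chance gives this in about 1 in 20 sets. On the brighter TGFB3 probe, rIPCl array 2 had a log2 signal of 8.25 against 9.42 to 9.67 on the other rIPCl arrays (ratio 0.821). On a SMAD4 probe (A_72_P631629), control array 1 had 10.13 against 10.40 to 10.51 on the other control arrays (ratio 0.717). On the brighter SMAD7 probe, rIPCe array 1 had 10.65 against 11.39 to 11.66 on the other rIPCe arrays (ratio 0.738).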

How the results depend on the processing

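In rIPCl versus control, the number of member probes called, 2 in the main analysis, was 0 without normalization between arrays, 1 with only the 10 arrays compared, and 0 with the methods' t-test, the replicate block, slide as a fixed block or slide as a random block. Leaving out 1 array gave 0 to 3: it was 0 without control array 2 or 3 or rIPCl array 3, 4 or 5, 1 without control array 4 or 5, rIPCe array 4 or rIPCl array 2, and 3 without control array 1. The calls over all probes, 2736, became 7734 with the 75th percentile, 1548 with the methods' t-test, 987 with the replicate block, 479 with slide as a fixed block and 0 with slide as a random block; those past the criteria, 2540, became 718 with normexp, 4091 without normalization, 1604 with the filter and 3845 with slide as a fixed block. The 2 probes past the criteria of the methods became 0 with normexp correction of the median signal, added after seeing the data because the planned normexp correction of the mean signal could not be run on these files. In rIPCe versus control the count past the criteria, 0, became 3 with slide as a fixed block and 1 with slide as a random block, and 0 to 2 when 1 array was left out (2 without control array 1).

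The brighter IL10 probe in rIPCl versus control lost its call at 1.31 (no normalization), 1.40 (10 arrays, t-test or replicate block), 1.68 (slide fixed) and 1.44 (slide random), and gave 1.18 to 1.70 with 1 array left out. The dimmer IL10 probe was called at 1.44 (75th percentile), with 1.07 to 1.90 with 1 array left out. It was also called at 1.48 with only probes well above background on all arrays of at least 1 group. It passed that filter only through rIPCl, the group where it was highest, so that call adds no separate support. TGFB1 was called at 0.73 as the mean of its probes. The dimmer TGFB1 probe lost its call at 0.82 (no normalization), 0.92 (t-test or replicate block), 0.77 (slide fixed) and 0.89 (slide random), with 0.81 to 1.08 with 1 array left out. SMAD4 was called at -0.30 with normexp (adjusted p = 0.0461 in limma). The same correction, which adds an offset of 50, gave 0.86 for the brighter IL10 probe (adjusted p = 0.0373) and 0.34 for the dimmer (adjusted p = 0.0801).

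With slide as a fixed block, the direction turned for SMAD2 (0.12) and SMAD7 (-0.18) in rIPCl versus control, for SMAD4 (0.03) and SMAD7 (-0.01) in rIPCe versus control, and for IL10 (-0.11) and SMAD3 (0.35) in rIPCl versus rIPCe. In rIPCl versus rIPCe, SMAD2 was at 0.00 and became -0.01 (75th percentile), -0.14 (no normalization) and -0.05 (normexp), and SMAD7 became 0.02 as a mean of probes. With 1 array left out, TGFB3 in rIPCl versus control gave -0.11 to 0.25, and in rIPCl versus rIPCe SMAD2 gave -0.05 to 0.04 and SMAD3 -0.16 to 0.04. None of these values was called. The cause of these changes was not tested.

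Same-numbered arrays did not deviate together over all probes: in 15 pairs the correlation of their deviations ran from -0.262 to 0.0741. The labels state no pairing by number. A pairing that touched few genes would not show in these correlations. The median difference of all probes in rIPCl versus control moved from -0.03 to -0.11 with the 75th percentile and to -0.24 without normalization. The dimmer IL10 probe was near background, which limits its differences.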
